A study of Danio rerio with 16 samples.

Results

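Transcript levels of 168 nuclear genes of mitochondrial energy production were described in zebrafish embryos with and without a working copy of rad21a, the gene for the kleisin subunit of the cohesin ring. The genes were chosen by symbol, with earlier results of these data known. They were taken where the array annotation gave a probe set a single symbol beginning with nduf, sdha to sdhd, uqcr, cox4 to cox8, cox10 to cox19, atp5, mrpl, mrps, timm or tomm. They made up 168 of the 8793 genes with a single symbol and were read by 188 of 15502 probe sets, with the brightest probe set standing for a gene. A total of 91 were respiratory chain genes, comprising 33 complex I subunits and 7 complex I assembly factors, 7 complex II genes, 7 complex III subunits, 14 complex IV subunits and 5 complex IV assembly factors, and 18 ATP synthase genes. The other 77 belonged to the mitochondrial ribosome (38 genes of its large and 21 of its small subunit) or to protein import (10 inner membrane TIM and 8 outer membrane TOM genes). Genes of mitochondrial DNA were outside this choice of names.

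The respiratory chain passes electrons from nutrients through complexes I to IV to oxygen and pumps protons across the inner mitochondrial membrane, and ATP synthase uses the proton gradient to make ATP. Most subunits are encoded in the nucleus, made on cytosolic ribosomes and brought in through the TOM and TIM translocases. The few subunits encoded by mitochondrial DNA are made inside the organelle on the mitochondrial ribosome, whose own proteins are all imported. In the zebrafish embryo, muscle and heart are rich in respiratory chains, and some subunits come as isoforms that differ between tissues.

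The embryos were rad21nz171 homozygous mutants, labelled Rad21 mutant, or wild type, and were collected at 24 or 48 hours post fertilisation (hpf). Each of the 4 groups had 4 biological replicates, each a pool of 50 dechorionated whole embryos kept at 28 degrees Celsius and each pool had an Affymetrix zebrafish genome array to itself (16 arrays in all). The homozygous mutants lack rad21a function throughout the body, maternal product aside, and the sources used here name no transgene or drug in any group. Values below are log2 intensities, and differences are log2 differences with the standard error (SE) of a limma fit to all 16 arrays. A gene is said to have risen or fallen, or to be called, where its Benjamini-Hochberg adjusted p over all 15502 probe sets was under 0.05. Intensities of different probe sets are not read as relative amounts of transcript, because probes differ in brightness. They are set against sequences foreign to the fish as a rough gauge of background. In the sums of marker genes bright probe sets weigh most.

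The targeted gene bore out the labels. The log2 intensity of rad21a was 10.09 to 10.55 in wild types and 6.58 to 7.06 in mutants at 24 hpf, and 10.06 to 10.48 against 5.92 to 6.72 at 48 hpf. As a gauge of background, probe sets for 5 sequences foreign to the fish gave 2.77 to 7.22, with a median of 4.66. Of the 168 genes, 6 had a mean below that median and 35 a mean below the highest of these readings, a range in which background may compress changes. Wild type replicate 1 at 24 hpf stood apart for these genes. Its mean correlation with the other arrays of its group over the 168 genes was 0.978, against 0.990 or more on the other 15 arrays, and values without it are given beside the counts and calls that it changes. It was not apart for these genes only, as it read lowest of its group for each skeletal muscle marker counted below. The muscle gene pvalb1 read 5.64 on it and 7.60 to 7.75 on the others of its group. In mutants of 24 hpf pvalb1 read 4.55, 4.34, 5.58 and 7.31 in replicates 1 to 4. A link between this spread and the mitochondrial genes was not tested. The 3′ minus 5′ difference of the muscle actin control probe sets, a sign of RNA quality, was 3.03 to 3.15 in wild types and 3.57 to 3.78 in mutants at 24 hpf, and 2.41 to 2.81 against 3.39 to 4.08 at 48 hpf. That of the GAPDH control probe sets overlapped between genotypes. It was 0.29 to 0.59 in wild types and 0.43 to 0.60 in mutants at 24 hpf, and 0.55 to 0.63 against 0.58 to 0.65 at 48 hpf. The part of RNA quality in the genotype differences below was not tested. In RNA from whole embryos, fewer cells of a type and less RNA per cell cannot be told apart.

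The respiratory chain and the ribosome and import genes moved apart between 24 and 48 hpf. For each array, each gene's value was set against its own mean over the 16 arrays, and the median of these deviations was taken over the set. For the 91 respiratory chain genes the median deviations of replicates 1 to 4 were 0.21, -0.08, -0.15 and -0.18 for wild types of 24 hpf and -0.03, -0.11, -0.19 and -0.18 for mutants of that age. They were 0.04, -0.00, 0.05 and 0.15 for wild types of 48 hpf and 0.17, 0.06, 0.07 and 0.13 for mutants. All arrays at 48 hpf lay above all arrays at 24 hpf with the exception of wild type replicate 1 at 24 hpf. For the 77 mitochondrial ribosome and import genes the median deviations were 0.54, 0.13, 0.14 and 0.12 for wild types of 24 hpf and 0.13, 0.11, -0.14 and -0.18 for mutants. They were -0.17, -0.07, -0.12 and 0.07 for wild types of 48 hpf and 0.02, -0.13, -0.15 and -0.28 in mutants. Wild types of 24 hpf had the highest values, at 0.12 to 0.54, and mutant replicates 1 (0.13) and 2 (0.11) of that age came up to them.

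The difference between the 2 medians within an array is not changed by multiplying all values of that array by a constant. A scaling that varies with brightness could change it, as the median level was 9.76 for the respiratory chain and 7.88 for ribosome and import. Such scaling was not tested in this measure. Respiratory chain minus ribosome and import came to -0.34, -0.22, -0.28 and -0.30 for the wild types of 24 hpf and -0.15, -0.22, -0.05 and -0.00 for the mutants. The corresponding differences of 48 hpf were 0.21, 0.06, 0.17 and 0.09 for wild types and 0.15, 0.19, 0.22 and 0.40 for mutants. All 8 arrays at 24 hpf lay below 0 and all 8 arrays at 48 hpf above 0. At 24 hpf the mutant arrays lay above the wild type arrays, except that replicate 2 of both genotypes stood at -0.22, and at 48 hpf the genotypes overlapped. In this measure wild type replicate 1, at -0.34, was next to replicate 4 of its group at -0.30.

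**Figure D1:**
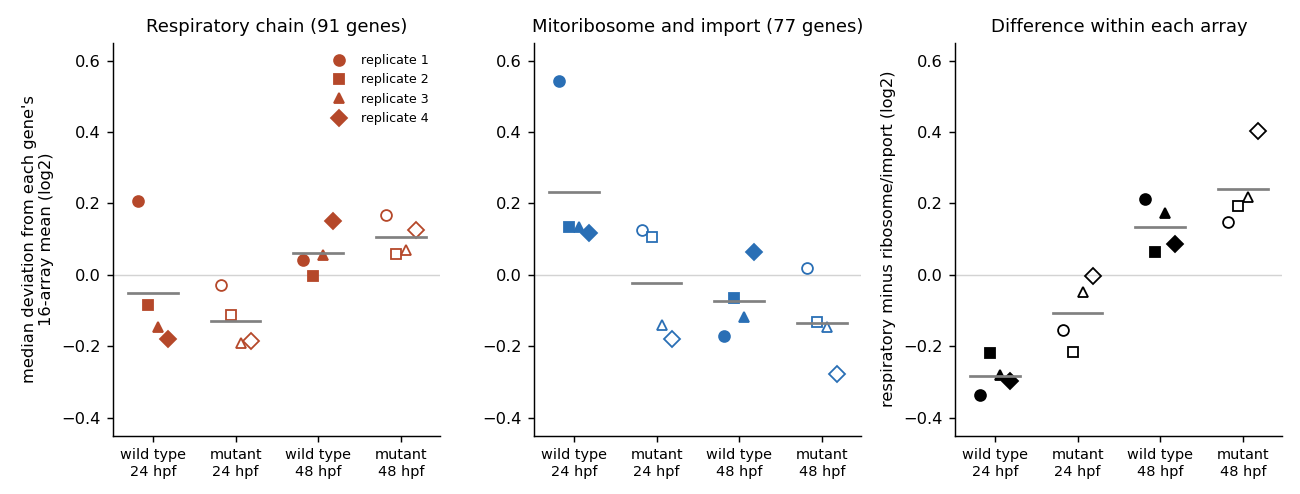
Median deviation from each gene's 16-array mean (log2) over the 91 respiratory chain genes, over the 77 mitoribosome and import genes, and the first minus the second within each array; each point is 1 array, filled for wild type and open for mutant, with the shape giving the replicate number and the grey bar the group mean. The within-array difference runs from -0.34 to -0.00 at 24 hpf and from 0.06 to 0.40 at 48 hpf, and wild type replicate 1 at 24 hpf is the highest array in the middle panel at 0.54.

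At 24 hpf the calls among these genes were mostly falls of large subunit proteins of the mitochondrial ribosome, 7 of 38 in mutants. The small subunit (1 of 21), import (1 of 18) and the respiratory chain (3 of 91, both directions) had few. The shift was not particular to the large subunit, with medians of -0.30 for the large subunit, -0.26 for the small and -0.30 for import. At an unadjusted p under 0.05 (limma), 19 of 38 large subunit, 11 of 21 small subunit and 10 of 18 import genes were lower and 0 higher. Of all 8793 genes, 1143 were lower and 955 higher at that threshold. Of the 77 ribosome and import genes, 9 fell and 0 rose (limma). Of all genes 8.69% were called, with 5.08% of all genes lower and 3.61% higher. The median change of the 77 was -0.27 and 73 of them (94.8%) were below 0, against a median of -0.00 and 51.1% of all genes. All mutant arrays lay below all wild type arrays for 16 of the 77, against 8.95% of all genes. Without wild type replicate 1 the median was -0.17 and 5 genes fell. The count also came to 5 without wild type replicate 3 and to 3 without mutant replicate 3 or mutant replicate 4. Of the 91 respiratory chain genes, 1 rose and 2 fell, with a median change of -0.08. The count came to 1 without mutant replicate 3 or mutant replicate 4, and to 5 without replicate 3 of the 48 hpf wild types. The median was 0.02 without wild type replicate 1, so the respiratory chain as a whole had no direction that held without that array.

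Among large subunit proteins of the mitochondrial ribosome, 7 of 38 fell at 24 hpf, with a median of -0.30. The largest fall was in mrpl12, which in mammals also binds the mitochondrial RNA polymerase. Its log2 intensity read 9.14, 8.85, 8.85 and 8.89 in wild types and 8.40, 8.52, 7.99 and 8.06 in the mutants. The groups did not overlap, and the mutant level was 1.61-fold lower (-0.69 ± 0.15, limma adjusted p = 0.00886). The next was mrpl49, with 8.51, 8.25, 8.09 and 8.09 in wild types and 7.82, 7.82, 7.64 and 7.41 in the mutants, a fall of 1.48-fold (-0.56 ± 0.12, limma adjusted p = 0.00655). All 4 mutant arrays again lay below all wild type arrays. The calls of mrpl12 and mrpl49 held with any 1 array left out.

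The other 5 large subunit genes that fell had changes between -0.50 and -0.40. These were mrpl45 (-0.50 ± 0.12), which anchors the ribosome to the inner membrane in mammals, mrpl20 (-0.49 ± 0.13), mrpl28 (-0.43 ± 0.11), mrpl43 (-0.42 ± 0.09) and mrpl44 (-0.40 ± 0.10). In each of the 5 the mutant and wild type arrays did not overlap. The probe set of mrpl43 read 4.06 to 4.35 in wild types and 3.61 to 3.82 in mutants, below the median of the foreign sequences. A further probe set of mrpl28 read -0.28 and was not called (limma adjusted p = 0.103). Leaving out 1 array ended the call of mrpl20 for 6 of the 16 arrays, of mrpl28 for 5, of mrpl44 for 3 and of mrpl45 for 2, with adjusted p-values up to 0.0947, and wild type replicate 1 was among them for mrpl20, mrpl28 and mrpl44. The changes without that array were -0.37 for mrpl20, -0.33 for mrpl28 and -0.34 for mrpl44.

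Of the 21 small subunit proteins all were below 0 at 24 hpf, with a median of -0.26, and 1 fell. This was mrps33 (-0.34 ± 0.10, limma adjusted p = 0.0425), whose probe set is dim, at 4.17 to 4.42 in wild types and 3.85 to 4.01 in mutants. Its call ended when any of 9 arrays was left out, with -0.30 (adjusted p = 0.0952) without wild type replicate 1. Among the import genes, 1 of 18 fell. It was tomm20a, a receptor of the outer membrane that binds the targeting signals of incoming proteins. It read 8.95, 8.59, 8.61 and 8.48 in wild types and 8.14, 8.30, 8.07 and 7.69 in the mutants. The groups did not overlap, and tomm20a was 1.52-fold lower in mutants (-0.61 ± 0.16, limma adjusted p = 0.0268). Leaving out any of 5 arrays ended this call, with -0.51 and an adjusted p of 0.0671 without wild type replicate 1. The 10 TIM genes had 0 calls by limma and 5 of them were lower at an unadjusted p under 0.05 (23.9% of all genes passed that in either direction), with a median of -0.31.

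In the respiratory chain, cox4i2 was the gene that rose at 24 hpf. It encodes an isoform of complex IV subunit 4 that in mammals is made in lung and in oxygen-poor cells. It read 4.70, 4.67, 4.53 and 4.59 in wild types and 5.54, 5.16, 5.54 and 5.95 in the mutants. Every mutant array lay above every wild type array, and the difference was 1.90-fold (0.93 ± 0.13, limma adjusted p = 0.00038). As wild type values were close to the background median of 4.66, the fold change may be compressed, which was not measured.

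The 2 respiratory chain genes that fell at 24 hpf also serve complex IV. The copper chaperone cox17, which brings copper to the enzyme, read 8.90, 8.64, 8.57 and 8.40 in wild types and 8.21, 8.14, 8.02 and 8.16 in the mutants (-0.49 ± 0.14, limma adjusted p = 0.0387). The supercomplex factor cox7a2l, which in mammals joins complexes III and IV, read 9.81, 9.46, 9.39 and 9.41 in wild types and 9.27, 9.06, 8.96 and 9.02 in the mutants (-0.44 ± 0.10, limma adjusted p = 0.0171). Neither pair of groups overlapped. The call of cox17 ended when any of 8 arrays was left out, with adjusted p-values up to 0.106 and -0.40 without wild type replicate 1. That of cox7a2l ended without mutant replicate 3 (-0.40, adjusted p = 0.0607) or mutant replicate 4 (-0.42, adjusted p = 0.0542). A second probe set of the assembly gene cox10, dimmer than the one that stands for it, was called lower (-0.36, adjusted p = 0.0423), while the main probe set was not (-0.18, adjusted p = 0.289).

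None of the complex I, II and III subunits or ATP synthase genes was called at 24 hpf by limma. The 33 complex I subunits had a median change of -0.06 with 0 calls by limma; before adjustment 2 were higher and 1 was lower at p under 0.05. The 18 ATP synthase genes had a median of -0.14 with 0 calls and 5 lower at an unadjusted p under 0.05. Of all 8793 genes 955 were higher and 1143 lower at that threshold. In the median deviation of the 18 genes wild type replicate 1 stood at 0.21 and the others of its group at -0.05 to -0.14. Close to the threshold were atp5f1c, the central stalk subunit gamma of ATP synthase (-0.32 ± 0.10, limma adjusted p = 0.0538), and the complex III core protein uqcrc1 (-0.26 ± 0.08, limma adjusted p = 0.066). In the members of complex II, which also works in the citric acid cycle, the changes were -0.01 for sdha, -0.09 for sdhb and -0.06 for sdhc. These 3 changes were smaller than their standard errors.

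At 48 hpf the largest genotype differences of the whole set were in the 2 measured forms of complex IV subunit 4, in opposite directions. Falls among the ribosome and import genes came at about the share of all genes, but none of these genes rose. Taken in both directions, calls in both parts came below the share of all genes. Of all genes 17.8% were called, 9.66% as higher and 8.18% as lower. Of the 91 respiratory chain genes 3 rose and 3 fell (3.3% each), with a median of 0.05 against 0.03 for all genes. The split was 1 higher and 3 lower with arrays centred on their medians, and 1 higher and 5 lower after cyclic loess. The number of calls came to 2 without wild type replicate 1, to 3 without wild type replicate 2 or 4 or mutant replicate 1, 2 or 3, and to 9 without wild type replicate 1 of 24 hpf. Of the 77 ribosome and import genes 6 fell (7.79%, against 8.18% of all genes) and 0 rose, with a median of -0.06. That count fell to 1 without wild type replicate 4, to 2 without mutant replicate 2, and to 3 without any of 6 other arrays (wild type replicates 1, 2 and 3, mutant replicates 3 and 4, and mutant replicate 3 of 24 hpf).

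The form cox4i1l, named for its likeness to the common isoform cox4i1, was lower in mutants at 48 hpf. It read 8.57, 8.62, 8.79 and 9.21 in wild types and 7.29, 7.36, 7.21 and 7.74 in the mutants. All 4 mutant arrays lay below all wild type arrays, and the level was 2.64-fold lower (-1.40 ± 0.19, limma adjusted p = 9.56e-05). At 24 hpf it read 5.14, 5.49, 5.60 and 5.27 in wild types and 6.11, 5.21, 5.47 and 6.05 in the mutants, with overlapping groups and no call (0.34 ± 0.19). These values at 24 hpf lay within the range of the foreign sequences, 2.77 to 7.22. The isoform cox4i2 was higher in mutants at 48 hpf as well, with 5.41, 5.35, 5.30 and 5.63 in wild types and 6.56, 6.61, 6.34 and 6.60 in the mutants. Every mutant array was above every wild type array, and the difference was 2.15-fold (1.11 ± 0.13, limma adjusted p = 1.86e-05). These values of cox4i2 also lay within the range of the foreign sequences, so the size of its difference is inexact. Both calls held under every alternative tried. No single-symbol probe set for cox4i1 itself was among the genes.

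The third respiratory gene that fell at 48 hpf beside cox4i1l and an assembly factor was ndufa4b. It is placed with complex I by name, although its mammalian counterpart is known as a subunit of complex IV. It read 5.65, 5.53, 5.41 and 5.79 in wild types and 4.76, 4.88, 4.96 and 5.17 in the mutants at 48 hpf, without overlap (-0.66 ± 0.20, limma adjusted p = 0.0305). The values at 48 hpf lay within the range of the foreign sequences, so the size of this difference is inexact. At 24 hpf all its values lay between 3.20 and 4.46, below the foreign median. Its call ended when any of 6 arrays was left out, with changes between -0.68 and -0.59.

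The other respiratory calls at 48 hpf were small. The iron-sulfur subunit of complex II, sdhb, read 9.61 to 9.72 in wild types and 9.92 to 10.03 in mutants, without overlap (0.31 ± 0.10, limma adjusted p = 0.0459). The call was at the edge, and leaving out any of 14 arrays ended it, with adjusted p-values up to 0.101. The complex I assembly factor ndufaf8 rose (0.40 ± 0.13, limma adjusted p = 0.0494) with groups that overlapped, at 5.21 to 5.63 in wild types and 5.61 to 6.07 in mutants, and its call ended for 10 arrays. Another assembly factor of complex I, ndufaf1, fell (-0.47 ± 0.14, limma adjusted p = 0.0256), with 7.95 to 8.24 in wild types and 7.36 to 7.91 in mutants, without overlap. Its second probe set read -0.44 without a call (adjusted p = 0.0958), and leaving out any of 5 arrays ended the call of the first. The other complex II subunits, sdha (-0.21 ± 0.15), sdhc (0.05 ± 0.12) and sdhdb (-0.12 ± 0.12), were not called.

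The 6 ribosome and import genes that fell at 48 hpf were mrpl12, mrps2, mrps5, mrps26, timm29 and tomm40l. In mrpl12 the wild type arrays read 8.28, 8.60, 7.87 and 8.52 and the mutant arrays 7.78, 7.83, 7.89 and 7.70 (-0.51 ± 0.15, limma adjusted p = 0.0254). Wild type replicate 3 lay among the mutants, and the call ended without mutant replicate 4 (-0.48), wild type replicate 2 (-0.42) or wild type replicate 4 (-0.45). It was the only ribosome gene called at both ages. The inner membrane carrier translocase subunit timm29 read 5.95 to 6.10 in wild types and 5.45 to 5.73 in mutants (-0.46 ± 0.12, limma adjusted p = 0.0116). Its groups did not overlap, and its call held under every alternative tried.

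The small subunit proteins mrps2 (-0.39 ± 0.12), mrps26 (-0.34 ± 0.11) and mrps5 (-0.33 ± 0.11) and the outer membrane channel homologue tomm40l (-0.44 ± 0.14) had adjusted p-values between 0.0309 and 0.0492. The 2 groups of arrays overlapped for mrps2, mrps26 and tomm40l and did not for mrps5. Other probe sets of mrps5 read -0.25 (adjusted p = 0.0658) and -0.06 without a call, and a second probe set of mrps15 was called lower (-0.50, adjusted p = 0.013) where the main one was not (-0.34, adjusted p = 0.123). Leaving out 1 array ended the call of mrps2 for 6 arrays, of tomm40l for 9, of mrps5 for 10 and of mrps26 for 13, with adjusted p-values up to 0.145. The import receptor tomm20a, called at 24 hpf, stood at -0.06 ± 0.16 at 48 hpf.

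**Figure D2:**
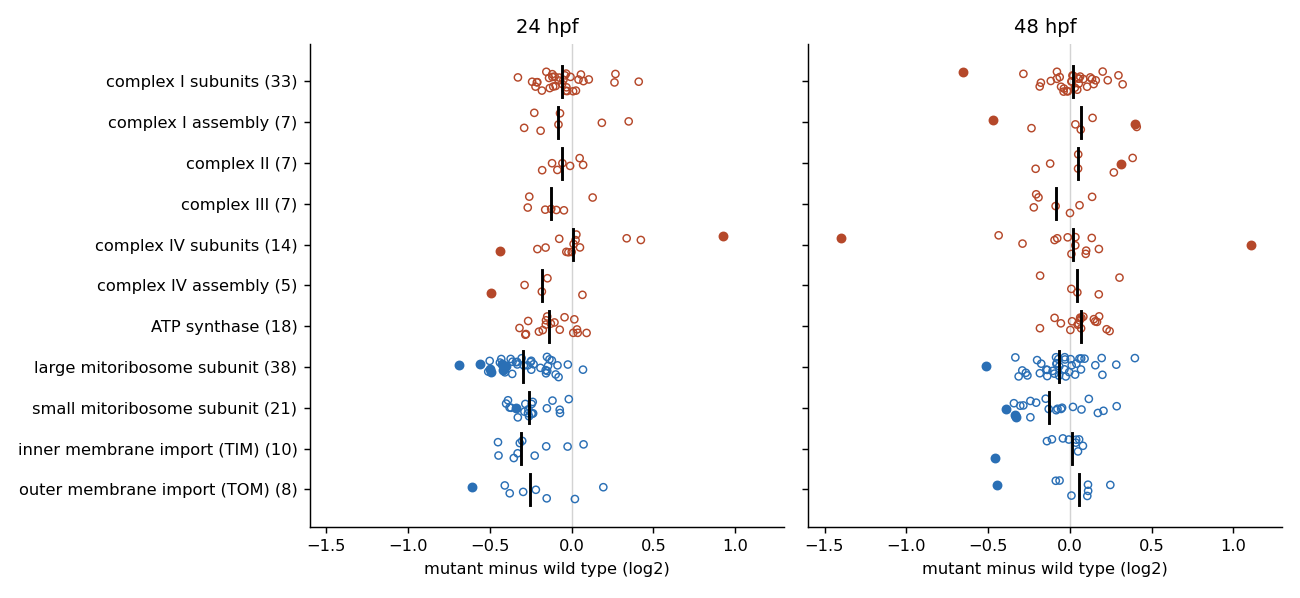
Mutant minus wild type (log2) for each of the 168 genes at 24 hpf (left) and 48 hpf (right), in rows by class with the number of genes in brackets; filled points are called (limma adjusted p under 0.05), open points are not, the black bar is the class median, and points are spread vertically at random for legibility. At 24 hpf the medians of the 4 ribosome and import classes lie between -0.31 and -0.26, and at 48 hpf between -0.13 and 0.06; the points farthest out at 48 hpf are cox4i1l at -1.40 and cox4i2 at 1.11.

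**Figure D3:**
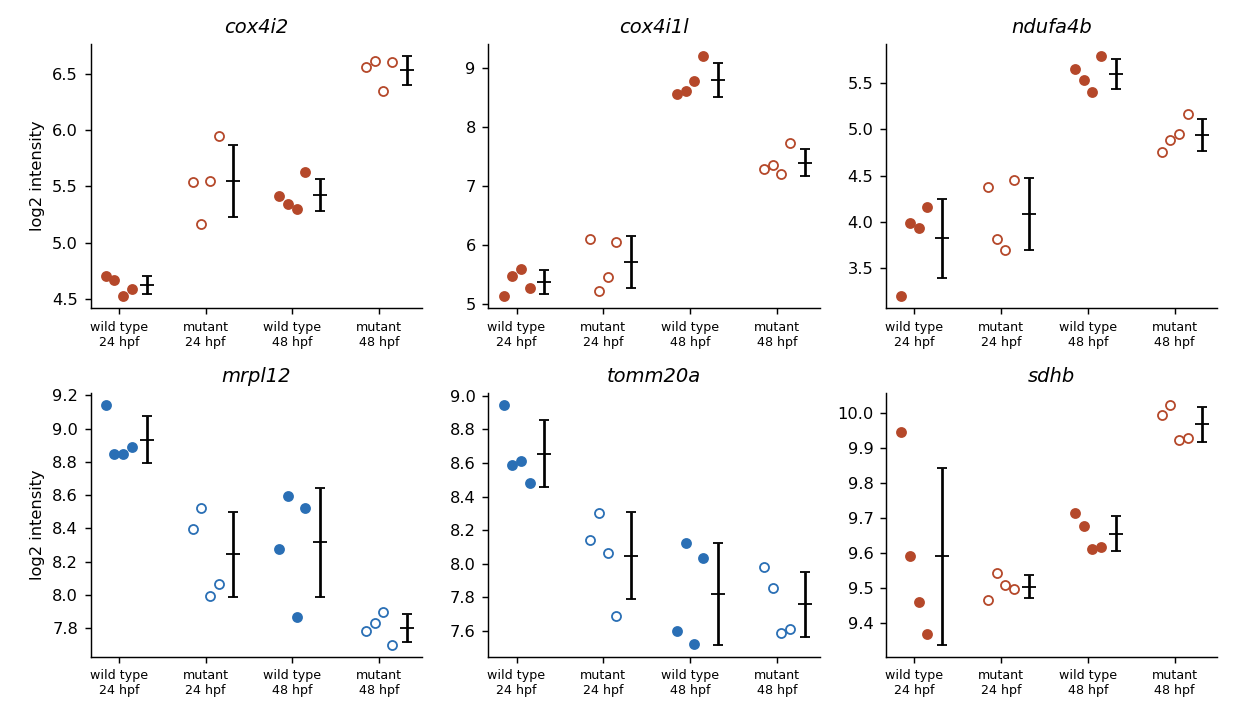
Log2 intensity on each of the 16 arrays for 4 respiratory chain genes and for mrpl12 and tomm20a, with filled points for wild type, open points for mutant and the mean ± SD (n = 4) to the right of each group; each panel has its own axis, which does not start at 0. For cox4i2 the mutant arrays lie above the wild type arrays at both ages, whereas for cox4i1l they overlap at 24 hpf and lie lower at 48 hpf.

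Whether the genotype difference changed between the ages was tested as an interaction. Of all genes 1.81% were called, 0.773% as higher and 1.03% as lower. In the respiratory chain 1 of 91 was called, cox4i1l, whose mutant minus wild type difference was lower at 48 hpf than at 24 hpf by 1.74 ± 0.27 on the log2 scale (limma adjusted p = 0.00338). Its values at 24 hpf lay within the range of the foreign sequences, so the size of this change is inexact. The next was cox17, lower in mutants at 24 hpf and 0.30 higher at 48 hpf, with a change of 0.80 and an adjusted p of 0.0528 that missed the threshold. Of the 77 ribosome and import genes 0 were called by limma, although 8 had an unadjusted p under 0.05 (13.6% of all genes had one), each of them higher. Their median change of 0.21, with 65 of 77 above 0, was set against 0.04 for all genes, of which 43.6% were below 0, and was 0.13 without wild type replicate 1. A weaker difference at 48 hpf than at 24 hpf was therefore not established for any ribosome or import gene.

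From 24 to 48 hpf in wild types the calls among respiratory subunits were all rises and those among ribosome and import genes all falls. Of all genes 36.1% were called, 14.4% as higher and 21.7% as lower. Of the 91 respiratory chain genes 21 rose and 5 fell, with a median of 0.14 against -0.06 for all genes. The 21 were all subunits, and the 5 that fell were not: 3 assembly factors (cox10, cox17 and ndufaf2), the complex II assembly factor sdhaf2 (-0.71 ± 0.22) and the ATP synthase inhibitor atp5if1a. Without wild type replicate 1 of 24 hpf the change of sdhaf2 was -0.48 (adjusted p = 0.0713) and that of cox17 -0.33 (adjusted p = 0.093), and neither was called. Leaving out 1 of 2 other arrays (wild type replicates 1 and 3 of 48 hpf) ended the call of sdhaf2, and 1 of 4 others that of cox17. Of the 77 ribosome and import genes 30 fell and 0 rose, with a median of -0.30. Without wild type replicate 1 the respiratory counts were 32 higher and 2 lower (median 0.23) and the ribosome and import count was 17 lower (median -0.21). After cyclic loess, which moved the median of all genes from -0.06 to -0.00, they were 36 higher and 1 lower, and 14 lower.

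Rises were called in each complex, while 14.4% of all genes were called higher in wild types. For ATP synthase the share was 16.7%, near that of all genes. Called higher in wild types were 10 of 33 complex I subunits, 2 of 7 complex II genes, 2 of 7 complex III subunits, 4 of 14 complex IV subunits and 3 of 18 ATP synthase genes. The largest was cox4i1l, 10.7-fold higher at 48 hpf (3.43 ± 0.19, limma adjusted p = 1.51e-09). Other large values were those of cox6b1, a complex IV subunit facing the space between the membranes (1.96 ± 0.43), ndufa4b (1.77 ± 0.20), cox4i2 (0.80 ± 0.13), the flavoprotein sdha (0.64 ± 0.15) and the complex I subunit ndufa9a (0.58 ± 0.10). At 24 hpf ndufa4b read below the background median of 4.66 in every array and cox4i2 at 4.53 to 4.70 in wild types, so their changes have no exact size or place in this order. The values of cox4i1l at 24 hpf lay above that median but within the range of the foreign sequences, so the size of its rise is inexact too. For cox6b1 the wild type arrays at 24 hpf read 6.16, 8.71, 9.05 and 8.61 and those at 48 hpf 10.02, 10.16, 9.94 and 10.25. Replicate 1 accounted for much of the spread, and the rise was 1.31 without it.

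Among the 77 ribosome and import genes the lowest value in wild types was that of tomm20a. The receptor tomm20a read 8.95, 8.59, 8.61 and 8.48 at 24 hpf and 7.60, 8.12, 7.52 and 8.03 at 48 hpf, without overlap, and was 1.79-fold lower (-0.84 ± 0.16, limma adjusted p = 0.000752). It was called lower with 6 of 10 TIM genes and 4 other TOM genes of 8, among them timm50, a receptor of the inner membrane (-0.70 ± 0.17), and tomm22, the partner receptor of tomm20 (-0.58). In the ribosome 13 of 38 large (34.2%) and 6 of 21 small subunit genes (28.6%) fell, against 21.7% of all genes. The largest falls there were those of mrpl22 (-0.67 ± 0.21), mrpl36 (-0.67 ± 0.16) and mrpl54 (-0.66 ± 0.17). The call of mrpl22 ended without wild type replicate 1 of 24 hpf (-0.42) or wild type replicate 3 of 48 hpf (-0.50), while tomm20a, timm50 and mrpl36 were called under every alternative.

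In mutants over the same day 32 of 91 respiratory chain genes rose and 4 of 77 ribosome and import genes fell. Of all genes 28.0% were called, 12.6% as higher and 15.4% as lower. Of the respiratory chain genes 1 fell, and their median was 0.26 against -0.02 for all genes. Of the ribosome and import genes 0 rose, and their median was -0.11. After cyclic loess the counts were 54 higher and 1 lower for the respiratory chain, and 2 higher and 1 lower with a median of -0.00 for the ribosome and import genes. The fall of the 77 in mutants thus did not survive that scaling as a direction. The number of respiratory calls was 21 without mutant replicate 3 at 24 hpf, and the 4 falls came to 0 without mutant replicate 1 or mutant replicate 2 at 24 hpf and to 2 without mutant replicate 2, 3 or 4 of 48 hpf.

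By class, 12 of 33 complex I subunits, 3 of 7 complex II genes, 2 of 7 complex III subunits, 6 of 14 complex IV subunits and 8 of 18 ATP synthase genes rose in mutants. Among all genes 12.6% were called higher. The largest rises were in cox4i1l, 3.23-fold (1.69 ± 0.19, from levels within the range of the foreign sequences), cox4i2 (0.98 ± 0.13), ndufa4b (0.86 ± 0.20, from levels below the background median), atp5mc1, a subunit of the proton-driven ring of ATP synthase (0.67 ± 0.10), atp5meb (0.56 ± 0.10) and ndufa8 (0.54 ± 0.11). The ring subunit atp5mc1 read 10.91 to 11.01 at 24 hpf and 11.50 to 11.92 at 48 hpf. The ages did not overlap. For cox4i2 the mutant values lay within the range of the foreign sequences at both ages, so the size of its rise is inexact. Of the 4 complex II subunits sdhb (0.47), sdhc (0.44) and sdha (0.44) rose in mutants and sdhdb (0.25) was not called, while in wild types sdhb stood at 0.06. The calls of sdhb and sdhc held under all 27 alternatives, whereas that of sdha was lost in 15 of them, among them 11 arrays left out, with 0.30 (adjusted p = 0.15) without mutant replicate 4 of 48 hpf. The genes that fell were ndufaf2 (-0.62 ± 0.16), mrpl12 (-0.44 ± 0.15), mrps2 (-0.39 ± 0.12), mrps5 (-0.36 ± 0.11) and timm21 (-0.34 ± 0.10), whose probe set is below the foreign median. Leaving out 1 array ended the call of mrpl12 for 6 arrays, of mrps2 for 4, of mrps5 for 3 and of timm21 for 2.

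The 2 genotypes share no array in these time comparisons, and their rises can be set side by side. Of 21 respiratory genes that rose in wild types and 32 that rose in mutants, 17 were shared, 81% of the first list and 53.1% of the second. The 30 falls in wild types and 4 in mutants among ribosome and import genes shared 3 (mrpl12, mrps5 and timm21), 10% and 75% of the lists. Across genes, which are not independent replicates, the changes in the 2 genotypes correlated with r = 0.85 over the 91 respiratory genes, 0.48 over the 77 ribosome and import genes and 0.83 over all genes. The wild type changes of the 91 had quartiles of 0.00 and 0.27, with outlying values of 3.43 for cox4i1l and 1.77 for ndufa4b. Those of the 77 ran from -0.84 to 0.09. The correlation without the outlying genes was not computed, so 0.85 and 0.48 are not like measures of agreement. The number of calls is not by itself a test of a difference between genotypes; that test is the interaction above, in which cox4i1l alone passed.

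**Figure D4:**
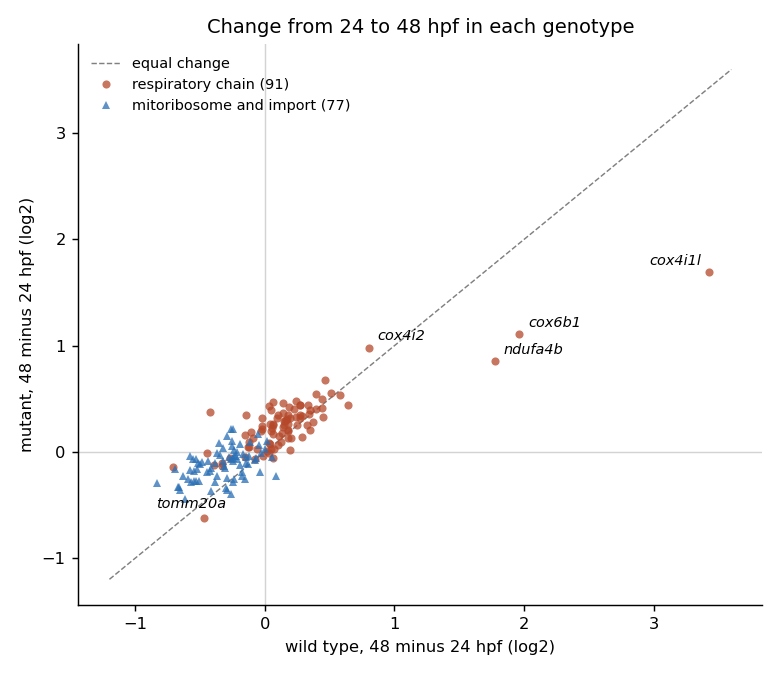
Change from 24 to 48 hpf (log2) in wild types on the horizontal axis and in mutants on the vertical axis for each of the 168 genes, with circles for the respiratory chain and triangles for mitoribosome and import and a dashed line of equal change. The triangles lie mostly left of 0, cox4i1l is at 3.43 in wild types and 1.69 in mutants, and cox4i2 is close to the dashed line at 0.80 and 0.98.

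**Figure D5:**
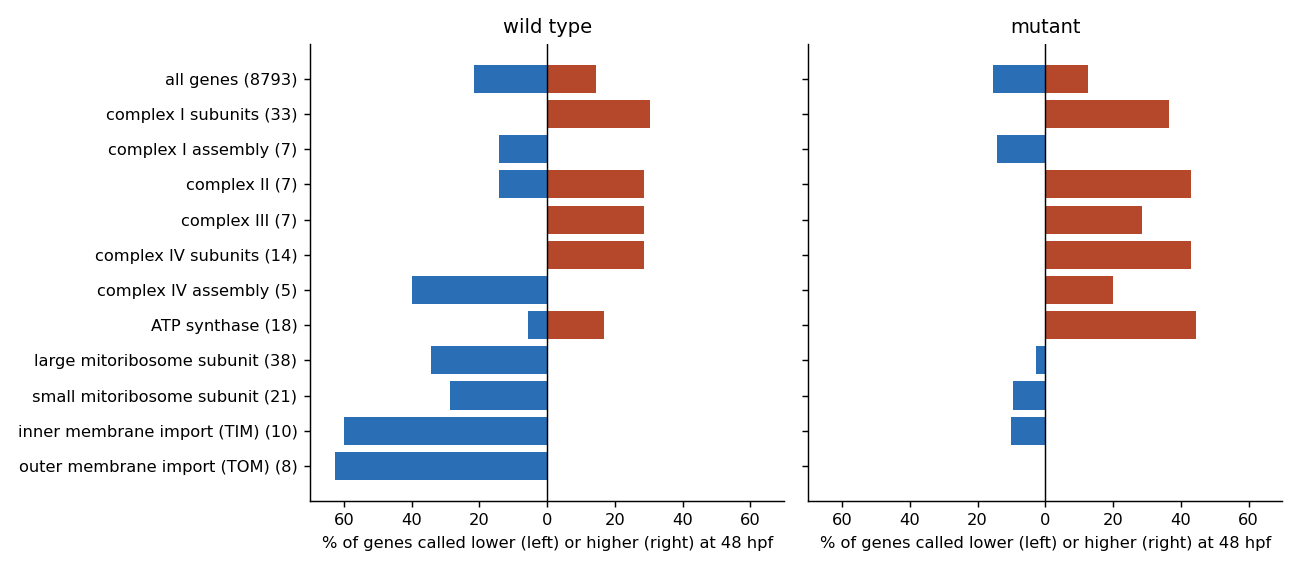
Percentage of the genes of each class called lower (bars to the left) and higher (bars to the right) at 48 than at 24 hpf, in wild types and in mutants, with all genes at the top and the number of genes in brackets. In wild types every ribosome and import class has bars to the left only, with 60% of TIM and 62.5% of TOM genes, and in mutants these bars reach at most 10%.

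Several genes come as pairs with like names, and their members did not always move together. These pairs were picked out after their values had been seen, and no difference between the members of a pair was tested. From 24 to 48 hpf in wild types tomm20a changed by -0.84 and tomm20b by 0.06 (adjusted p = 0.646), with tomm20b between 9.05 and 9.31 on all 16 arrays. The subunit ndufa4b rose by 1.77 while ndufa4a, at 11.0 to 11.4 on every array, changed by 0.10 (adjusted p = 0.456). Of the inhibitors of ATP synthase, which block its reverse reaction, atp5if1a fell by 0.45 in wild types (adjusted p = 0.00162), from 9.36 to 9.69 at 24 hpf to 9.02 to 9.11 at 48 hpf. The other inhibitor, atp5if1b, changed by 0.17 (adjusted p = 0.43). The membrane subunit atp5meb rose in wild types (0.51) and mutants (0.56), and atp5mea changed by 0.03 and -0.01. The complex III core pair uqcrc2a and uqcrc2b both changed by 0.29 in wild types, and the change of uqcrc2a was called (adjusted p = 0.0202) while that of uqcrc2b was not (adjusted p = 0.05).

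Further genes, among them those with the brightest probe sets of most classes, are given here for their levels and had no genotype call. The catalytic ATP synthase subunit atp5f1b read 11.83 to 12.44 in wild types and 11.86 to 12.23 in mutants at 24 hpf, and 12.28 to 12.41 against 11.93 to 12.58 at 48 hpf. The groups overlapped in both comparisons, with changes of -0.16 ± 0.15 and -0.05 ± 0.15. The complex IV subunits cox6b2 (0.03 and 0.13) and cox6a1 (0.01 and 0.03), the Rieske iron-sulfur protein uqcrfs1 of complex III (-0.16 and 0.06) and ndufa4a (0.04 and 0.01) had no call at 24 or 48 hpf. Nor did mrpl30 (-0.25 and 0.07), mrps18c (-0.07 and 0.29), the small intermembrane chaperone timm13 (-0.35 and 0.04) and the small TOM subunit tomm5 (0.19 and 0.25). Of these mrpl30 (-0.35 ± 0.13) and timm13 (-0.50 ± 0.14) fell over time in wild types, and the call of mrpl30 ended when any of 11 arrays was left out, with -0.21 (adjusted p = 0.176) without wild type replicate 1 of 24 hpf.

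Of the 168 genes, 5 pairs were next to each other in the RefSeq annotation of assembly GRCz12tu: uqcrq with timm8a, ndufs6 with mrpl36, mrpl20 with sdhb, mrpl47 with ndufb5, and tomm34 with cox6c. Some neighbours were called in opposite directions. In wild types over time mrpl36 fell by 0.67 and ndufs6 rose by 0.35, and mrpl47 fell by 0.53 and ndufb5 rose by 0.40.

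Other mitochondrial genes and some cytosolic relatives, from lists chosen with earlier results of these data known, are given for comparison. The citric acid cycle and pyruvate dehydrogenase feed the chain with electrons, and their list of 25 genes also held cytosolic enzymes named below. Of the 25, 12 rose over time in wild types, where 14.4% of all genes did. In mutants 12 rose, where 12.6% of all genes did, and 0 fell in either genotype. The cytosolic malate dehydrogenase mdh1ab was lower in mutants at 24 hpf (-1.25, limma adjusted p = 0.000116) and at 48 hpf (-1.07, limma adjusted p = 0.000135). The isocitrate dehydrogenase idh1, also cytosolic, was higher at 24 hpf (0.51, limma adjusted p = 0.0214) and 48 hpf (0.78, limma adjusted p = 0.000416), and suclg2, a subunit of succinyl-CoA ligase, at 48 hpf (0.38, limma adjusted p = 0.044). Of 16 genes of mitochondrial DNA maintenance and transcription 2 fell in mutants at 24 hpf, against 5.08% of all genes, the RNA-binding protein lrpprc (-0.73, limma adjusted p = 0.00166) and the helicase supv3l1 (-0.52, limma adjusted p = 0.038), and all 16 were below 0, against 51.1% of all genes. Of 8 regulators of mitochondrial biogenesis, the coactivator pprc1 fell at 24 hpf (-1.10, limma adjusted p = 0.00532). At 48 hpf 3 of the 8 fell, against 8.18% of all genes, among them hcfc1a (-0.64) and nrf1 (-0.64), and all 8 were below 0, as were 45.3% of all genes. Of 16 carriers and porins the ADP/ATP carrier slc25a4 rose by 6.16 in wild types and 5.09 in mutants from 24 to 48 hpf, from levels of 4.06 to 5.17, and was lower in mutants at 48 hpf (-1.42, limma adjusted p = 0.000545). Its levels at 24 hpf lay around the median of the foreign sequences, so its rises have no exact size.

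Protein synthesis outside the organelle differed between its parts. Of 56 ribosome biogenesis genes, which build cytosolic ribosomes, 29 fell in mutants at 24 hpf and 23 at 48 hpf, with 52 falling over time in wild types and 51 in mutants, and 0 rose. Among all genes 5.08% were lower in mutants at 24 hpf and 8.18% at 48 hpf. Over time 21.7% of all genes fell in wild types and 15.4% in mutants. Of 68 cytosolic ribosomal proteins 1 rose and 0 fell in mutants at 24 hpf, and their median change was -0.00, against -0.27 for the mitochondrial ribosome and import genes. The median level was 13.31 for the former and 7.88 for the latter, and an effect of brightness on these changes was not tested. From 24 to 48 hpf 10 of the 68 fell in wild types, and 16 fell and 1 rose in mutants. Their median changes were -0.16 and -0.18, with 66 below 0 in each genotype. For the 77 mitochondrial ribosome and import genes the medians were -0.30 and -0.11, with 74 and 63 below 0. Of 21 mitochondrial translation factors and synthetases 1 rose and 2 fell at 24 hpf, and of 22 other import and processing genes 1 rose and 4 fell, among them the prohibitin phb2b (-0.88, limma adjusted p = 0.000965). Of 16 further genes of the chain, cytochrome c and assembly factors among them, 2 fell at 24 hpf and 2 rose at 48 hpf. Among all genes 3.61% were higher in mutants at 24 hpf and 9.66% at 48 hpf, and several counts here rest on 1 or 2 genes.

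Markers of some cell types were called over time, and some between genotypes. Over time 14.4% of all genes were called higher and 21.7% lower in wild types, and 12.6% and 15.4% in mutants. Between genotypes 3.61% were higher and 5.08% lower in mutants at 24 hpf, and 9.66% and 8.18% at 48 hpf. At 24 hpf 0 of 13 skeletal muscle genes were called between genotypes by limma, although 4 were lower at an unadjusted p under 0.05. Over time 12 of 13 skeletal muscle genes rose in each genotype. Their summed intensity was 12455 to 26945 in wild types and 11594 to 28727 in mutants at 24 hpf, and 92925 to 99573 against 58421 to 91820 at 48 hpf. Of 7 neuron genes 7 rose in wild types and 5 in mutants, and of 7 erythroid genes 5 rose in wild types and 4 in mutants. At 48 hpf 5 of 7 erythroid genes were lower in mutants, with sums of 13524 to 20684 against 23435 to 26725, and so were 1 of 13 skeletal muscle genes and 1 of 5 heart genes, with heart sums of 832 to 1314 against 1081 to 1386. Of 6 proliferation genes 3 fell in mutants at 24 hpf, with sums of 7146 to 8691 against 11200 to 11990, and 5 fell over time in wild types. At 24 hpf 1 of 5 heart genes was lower in mutants, with sums of 720 to 877 against 902 to 1051. Of 7 neuron genes gap43 was higher in mutants at 24 hpf (0.57) and 48 hpf (0.68). Of 5 epidermis genes 0 were called at 24 hpf (limma, 0 also at an unadjusted p under 0.05), and at 48 hpf krt17 was higher (0.66) and krt5 lower (-0.57). Of 4 liver and yolk genes 0 were called at either age (limma), with 1 of the latter at an unadjusted p under 0.05 at 48 hpf. The part of any of these cell types in the results for cox4i1l, ndufa4b, the rises over time and the ribosome and import genes was not tested.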

How the data were processed

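The deposited series table holds intensities on a linear scale, 1 value per probe set and array. GCOS, RMA and affy are named in the submitters' processing notes, with no settings given there. Array medians ran from 45.9 to 48.4. Log2 was taken with no pseudocount; the tests had been laid out for values already on a log2 scale, and were kept. Of 15617 probe sets 115 controls were left out and 15502 tested with no filter. Symbols came from the platform annotation: 10795 had 1, 135 several and 4572 none. All 168 members were found in RefSeq (GRCz12tu) with 0 symbols changed.

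A limma 3.58.1 model in R 4.3.3 with a mean per group was fitted to all 16 arrays (12 residual degrees of freedom, prior 4.97), with two-sided tests adjusted by Benjamini-Hochberg over 15502 probe sets. The number of arrays limits the precision. Simulated data with known changes were used to test the fit. Named were called members up to 24 per genotype comparison, the 6 largest called changes each way over time, and in each class the brightest member and that with the smallest adjusted p. Members and lists were chosen with earlier results of these data known. Alternatives were another scaling, pseudocount, filter, probe set rule, variance model, array weights, replicate block, each array left out, and, added after seeing the data, 3 arrays left out. Same-numbered replicates did not all deviate together (correlations from -0.31 to 0.43), so the numbers were not taken as pairs. Between mutants and wild types of 24 hpf the correlations were 0.43, -0.31, 0.30 and 0.39 for replicates 1 to 4. Arrays with different numbers were not compared, so whether the numbers mark a shared batch was not tested.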

Additional observations from a re-analysis of the deposited data

Results flagged for a closer look

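In 196 sets of 4 arrays, 10 had a highest or lowest array farther from the rest than Dixon's 95% critical value allows, where chance gives about 1 in 20. Wild type replicate 1 at 24 hpf was that array in 9 of them. It was lowest for cox6b1 at 6.16, with the others at 8.61 to 9.05, and for sdha at 8.44, with the others at 8.67 to 8.71. It was highest for cox7a2l (9.81, the others 9.39 to 9.46), mrpl12 (9.14, the others 8.85 to 8.89), mrpl54 (8.96, the others 8.46 to 8.51), mrps26 (7.39, the others 7.01 to 7.02), ndufaf2 (6.61, the others 6.10 to 6.16) and ndufaf8 (5.60, the others 5.26 to 5.30). It was also highest in the median deviation of the 77 ribosome and import genes, at 0.54. The remaining one was mrpl28 in mutant replicate 2 at 24 hpf, at 7.80 with the others at 7.58 to 7.60.

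The genotype difference of cox4i1l changed between the ages by -1.74 in the interaction test, from 0.34 at 24 hpf to -1.40 at 48 hpf, and the call held under all 27 alternatives. At 24 hpf its values lay within the range of the foreign sequences, so the size of the change is inexact.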

How the results depend on the processing

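Of the 10 counts of called genes, 94 values under settings other than leaving out 1 array stayed within 1.5 times and 16 did not. Respiratory calls at 24 hpf came to 7 with cyclic loess, 7 with log2(value + 16), 12 with array weights and 6 without the 3 arrays least like their groups (an alternative chosen after seeing the data). At 48 hpf they came to 10 with array weights, in the interaction to 2 with the dim filter, the mean of probe sets, array weights or the replicate block, and over time in mutants to 55 with cyclic loess. Ribosome and import calls came to 26 at 24 hpf with array weights, at 48 hpf to 1 with only the compared groups in the fit and 3 with trend and robust eBayes, over time in wild types to 14 with cyclic loess and 15 without the 3 arrays, and over time in mutants to 2 with quantile normalization. The cause was not tested. With 1 array left out, respiratory counts ran from 1 to 5 at 24 hpf, 2 to 9 at 48 hpf, 1 to 2 in the interaction, 21 to 34 over time in wild types and 21 to 44 in mutants. Ribosome and import counts ran from 3 to 10, 1 to 7, 0 to 0, 17 to 34 and 0 to 6. The replicate block changed the respiratory counts to 4, 7, 2, 26 and 35 and the ribosome and import counts to 10, 6, 0, 32 and 4. Changes may be compressed in the 35 genes whose mean lies below the highest foreign reading, which was not measured.

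Called genes kept their direction. A total of 82 values of named genes changed sign, with no call under either setting. With cyclic loess they were, at 24 hpf cox6a1 (-0.01), at 48 hpf cox6a1 (-0.0091), ndufa4a (-0.0335) and timm13 (-0.0066), over time in wild types timm29 (0.034) and uqcrfs1 (0.0313), over time in mutants cox6b2 (0.0447), mrpl30 (0.0843), mrps18c (0.1051) and timm13 (0.0065). With quantile normalization they were, at 24 hpf cox6b2 (-0.0218), in the interaction cox6a1 (-0.0172), over time in wild types atp5f1b (-0.0182), atp5f1c (-0.0098) and ndufa4a (-0.0126), over time in mutants mrpl30 (0.0007), mrps18c (0.0134) and ndufa4a (-0.0401). Without the 3 arrays they were, at 24 hpf mrps18c (0.0681), sdhb (0.0307) and sdhc (0.0582), at 48 hpf sdhc (-0.0162), in the interaction cox6a1 (-0.0156), cox6b2 (-0.0297) and sdhc (-0.0744), over time in wild types timm29 (0.0854), over time in mutants mrpl30 (0.0413), mrps18c (0.0395) and ndufaf1 (-0.0081). With array weights they were, at 24 hpf ndufa4b (-0.0076) and sdhb (0.0029), at 48 hpf sdhc (-0.0071), over time in wild types timm29 (0.0838), over time in mutants mrpl30 (0.035) and mrps18c (0.0339). With centred arrays they were, at 48 hpf ndufa4a (-0.018), in the interaction cox6a1 (-0.009), over time in mutants ndufaf1 (-0.0181). With 1 array left out, values at 24 hpf ran from -0.0348 to 0.0545 for cox6a1, -0.0362 to 0.1428 for cox6b2, -0.1583 to 0.0681 for mrps18c, -0.0127 to 0.1217 for ndufa4a, -0.087 to 0.1075 for sdha, -0.1621 to 0.0307 for sdhb and -0.121 to 0.0582 for sdhc. At 48 hpf they ran from -0.151 to 0.0644 for atp5f1b, -0.0372 to 0.052 for ndufa4a, -0.0362 to 0.0951 for sdhc, -0.0357 to 0.0971 for timm13 and -0.1624 to 0.0383 for tomm20a. In the interaction they ran from -0.0206 to 0.0687 for cox6a1, -0.0088 to 0.1702 for cox6b2, -0.1122 to 0.0221 for ndufa4a, -0.0079 to 0.1713 for sdhc and -0.0534 to 0.124 for tomm5. Over time in wild types they ran from -0.0101 to 0.1827 for sdhb and -0.1229 to 0.0615 for timm29. Over time in mutants they ran from -0.0903 to 0.0413 for mrpl30, -0.1139 to 0.0537 for mrps18c and -0.0736 to 0.1186 for ndufaf1.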
